A study of Arabidopsis thaliana with 51 samples.

Results

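ARL (AT2G44080), RTE1 (AT2G26070) and AT4G28420 were followed across Arabidopsis thaliana seedlings of 5 lines, with attention to the ethylene-insensitive mutant ein2. They were taken as all probe sets of the ATH1 array, a short-oligonucleotide expression microarray, that the annotation table pairs with one of these symbols alone. Each gene had 1 such probe set, so 3 of the 13350 genes that have a probe set of their own were taken. The genes were chosen by differences between ein2 and the other lines measured on these same arrays. Values of ein2 against any other line, and the changes in WT and ein2 at the treatments both received, are therefore given as a description with no test. For these 3 genes, tests are reported only for contrasts without ein2 that the choice did not use. Genes of the ethylene and marker lists were also tested between ein2 and WT and in the responses of WT.

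The groups were ein2-1, efr-1, pepr1-1 pepr2-3, bak1-3 and wild-type (WT) seedlings, each line represented by the named mutant alleles. The ein2 seedlings were sampled at 0 h, after 2 h and 10 h of elf18 and after 2 h of Pep2. The efr seedlings were sampled at 0 h and after 10 h of elf18, and the pepr1 pepr2 and bak1 seedlings at 0 h and after 2 h and 10 h of Pep2. WT seedlings were sampled at 0 h and after 2 h and 10 h of each peptide. Both peptides were used at 1 µM on seedlings grown on agar and then in liquid medium, and RNA came from the whole seedling. There were 3 arrays, described as biological replicates, in each of the 17 groups. No untreated seedlings were sampled at 2 h or 10 h, so within 1 line the peptide and the elapsed time cannot be told apart in a change from 0 h. Lines mutated in the receptor of the peptide were given it for the same time, namely efr for 10 h of elf18 and pepr1 pepr2 for 2 h and 10 h of Pep2. Their changes are printed beside those of the other lines. No such line was sampled after 2 h of elf18.

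EIN2 is a membrane protein of the endoplasmic reticulum that carries the ethylene signal from the receptors to the transcription factors EIN3 and EIL1, and seedlings that lack it do not respond to ethylene. RTE1 is a membrane protein that promotes the activity of the receptor ETR1 and so acts against ethylene responses, and its transcript is known to be raised by ethylene. ARL belongs to the ARGOS family of small membrane-associated proteins, which promote organ growth and, when overproduced, lower the sensitivity to ethylene. AT4G28420 is annotated as a member of the tyrosine transaminase family, enzymes that move the amino group of aromatic amino acids. The peptide elf18, a fragment of the bacterial elongation factor Tu, binds the receptor kinase EFR, and the plant's own Pep2 binds the kinases PEPR1 and PEPR2. BAK1 is a co-receptor kinase for both.

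The deposited values were log2 expression after GCRMA, a background correction and normalisation for this kind of array. Array medians lay between 6.04 and 6.16 log2, and the lowest correlation between 2 arrays of a group was 0.977. EFR, the targeted gene of the efr line, read 2.16 to 2.29 log2 on the efr arrays, against 2.80 to 7.16 log2 on all other arrays. EIN2 itself is paired with no probe set in the annotation table, so the ein2 label was not checked through its own gene. Of the photosynthetic markers, the Rubisco activase gene RCA read 13.8 to 15.2 log2 and LHCB4.2, a light-harvesting protein gene, 8.98 to 14.3 log2. The root-hair expansin gene EXPA7 was the only root marker of 9 listed that was paired with 1 probe set. It read 5.47 to 7.41 log2, near the array medians, so the share of root in the RNA cannot be judged from it.

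One ein2 array stood apart. Replicate 1 of ein2 after 10 h of elf18 had the widest spread about its group means of all 51 arrays, with a residual SD of 0.316 against at most 0.242 on the others. Besides ARL, 49 probe sets were lower in ein2 than in WT by at least 2 log2 units at 0 h, after 2 h of elf18 and after 2 h of Pep2. After 10 h of elf18 their median was -2.11 log2 relative to WT on replicate 1, -3.85 on replicate 2 and -3.97 on replicate 3. Replicate 1 was the highest of the 3 arrays for 48 of these 49 probe sets. The 41 probe sets that were higher in ein2 by the same rule did not show this, with medians of 3.42, 3.64 and 3.54 log2 above WT on replicates 1, 2 and 3. ARL is one of the genes this array bears on, and its values are given with and without it below. What set the array apart was not tested.

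**Figure D1:**
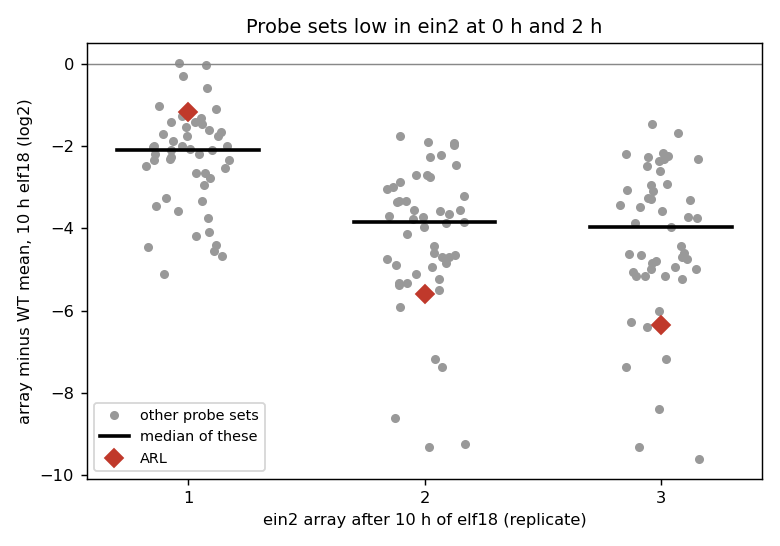
Each grey point is 1 of the 49 probe sets low in ein2 at the other conditions, plotted for each ein2 array of 10 h of elf18 as its log2 value minus the WT mean of that condition. Black bars are medians of -2.11, -3.85 and -3.97, and the red diamonds are ARL, which on replicate 1 sits far above its position on the other 2 arrays.

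RTE1 was lower on every one of the 12 ein2 arrays, with 3.51 to 6.17 log2 and a median of 5.46, than on any of the 39 arrays of the other lines, with 6.90 to 8.02 log2 and a median of 7.43. A gap of this kind, with all ein2 arrays below all others, was found for 52 of the 14568 probe sets tested (0.357%), and ARL was the other of the 3 genes that showed it. The opposite gap, with all ein2 arrays above all others, was found for 72 probe sets (0.494%) and for none of the 3 genes. At 0 h RTE1 read 6.11, 6.00 and 6.17 log2 in ein2 seedlings, against 7.26, 7.28 and 7.11 log2 in WT seedlings. The difference of -1.12 log2 (SE 0.22) corresponds to a level 2.17-fold lower. Against the other untreated mutants the ein2 difference was -0.94 from efr, -1.13 from pepr1 pepr2 and -1.13 log2 from bak1 (SE 0.22 each). In a whole seedling, fewer cells of a type and less RNA per cell cannot be told apart, for this and every later difference.

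The distance between ein2 and WT in RTE1 was wider in all 3 treatments that both received. With 2 h of elf18, RTE1 read 3.51, 5.29 and 5.29 log2 in ein2 seedlings, against 7.75, 8.02 and 7.89 log2 in WT seedlings, a difference of -3.19 log2 (SE 0.22). Without the lowest ein2 array, replicate 1, this difference was -2.60 log2. With 2 h of Pep2 the 3 arrays read 4.56, 4.97 and 4.51 log2 in ein2 seedlings, against 7.03, 7.29 and 7.57 log2 in WT seedlings, a difference of -2.61 log2. With 10 h of elf18 they read 5.97, 5.63 and 5.77 log2 in ein2 seedlings, against 7.86, 8.01 and 7.94 log2 in WT seedlings, a difference of -2.15 log2. The groups did not overlap at any of these times.

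Relative to its own 0 h, RTE1 in ein2 differed by -1.40 log2 after 2 h of elf18, by -1.42 log2 after 2 h of Pep2 and by -0.31 log2 after 10 h of elf18 (SE 0.22 each). Without replicate 1 of ein2 after 2 h of elf18, which read 3.51 log2, the first of these was -0.81 log2. In WT the differences from 0 h were 0.67 log2 after 2 h of elf18, 0.08 after 2 h of Pep2 and 0.72 after 10 h of elf18. The ein2 change minus the WT change was therefore -2.07, -1.50 and -1.03 log2 (SE 0.32 each) after 2 h of elf18, 2 h of Pep2 and 10 h of elf18, and the first was -1.48 log2 without that replicate. At 2 h in ein2 the RTE1 level averaged 4.70 ± 1.02 log2 with elf18 and 4.68 ± 0.25 log2 with Pep2 (SD, n = 3 each). The closeness of these means rests on replicate 1 of elf18, since the other 2 elf18 arrays were above every Pep2 array, and without it the level with elf18 was 0.61 log2 above that with Pep2. In WT the level with elf18 was 0.59 log2 above that with Pep2.

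In the lines other than ein2, RTE1 was higher after 10 h of peptide than at 0 h by about the same amount in each. It read 7.96, 7.82 and 7.85 log2 in WT after 10 h of Pep2, 0.66 log2 above WT at 0 h (SE 0.22, adjusted p = 0.012), a contrast that shares the WT 0 h arrays with the comparisons of ein2. In bak1 it read 7.91, 7.90 and 7.84 log2 after 10 h of Pep2, against 7.25, 7.16 and 7.26 log2 at 0 h, a difference of 0.66 log2 (adjusted p = 0.0087). In efr it read 7.75, 7.73 and 7.43 log2 after 10 h of elf18, against 6.90, 7.12 and 7.08 log2 at 0 h, a difference of 0.60 log2 (adjusted p = 0.024). In pepr1 pepr2 it read 7.86, 7.69 and 7.52 log2 after 10 h of Pep2, against 7.06, 7.23 and 7.39 log2 at 0 h, a difference of 0.46 log2 (adjusted p = 0.085). Treated and 0 h arrays did not overlap in any of the 4, but every difference was under the 2-fold minimum, so none counted as called. The share of all probe sets called was 17.4% in WT and 32% in bak1 after 10 h of Pep2, 15.2% in efr after 10 h of elf18 and 14.8% in pepr1 pepr2 after 10 h of Pep2.

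The other tests of RTE1 gave small differences. After 2 h of Pep2 it differed from 0 h by 0.18 log2 in pepr1 pepr2 (adjusted p = 0.62) and by 0.07 log2 in bak1 (adjusted p = 0.83), where 3.53% and 19.9% of probe sets were called. The bak1 response minus the pepr1 pepr2 response was -0.11 log2 at 2 h and 0.20 log2 at 10 h (SE 0.32 each, adjusted p = 0.80 and 0.61), where 21% and 32.3% of probe sets were called. After 10 h of Pep2 the level differed from WT by -0.19 log2 in pepr1 pepr2 and by 0.01 log2 in bak1 (SE 0.22 each), where 8.17% and 16.1% were called. Among untreated efr, pepr1 pepr2 and bak1 seedlings RTE1 differed by 0.19 log2 in bak1 minus efr, by -0.19 in efr minus pepr1 pepr2 and by -0.00 in bak1 minus pepr1 pepr2. None of these was called, and 0.604%, 0.151% and 0.0481% of all probe sets were called in these pairs.

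**Figure D2:**
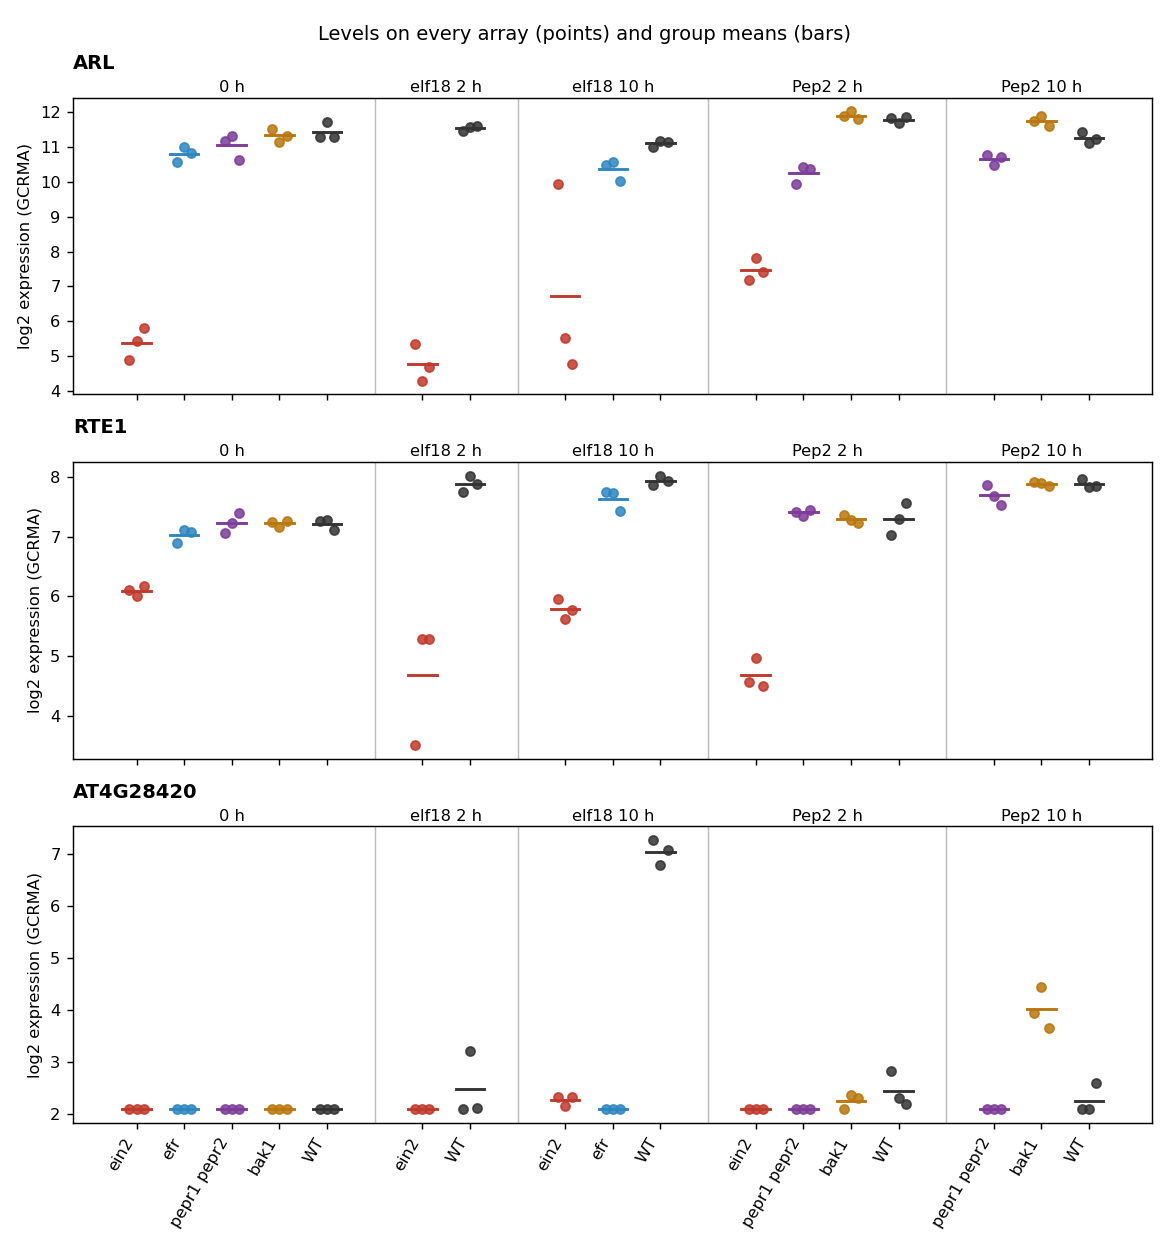
Log2 expression of each gene on every array (points) with the group mean (bar), arranged by treatment and, within a treatment, by line. ARL and RTE1 are lower on all 12 ein2 arrays than on the 39 others, and AT4G28420 leaves the lowest value of the scale mainly in WT after 10 h of elf18 and in bak1 after 10 h of Pep2.

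Listed by mean, the 17 group levels of RTE1 ran from 7.94 log2 in WT after 10 h of elf18 down to 4.68 log2 in ein2 after 2 h of Pep2. The 13 groups of the other lines came first, and within them every pair of neighbours had overlapping arrays. Untreated ein2, at 6.10 log2, lay 0.94 log2 below untreated efr, at 7.03 log2, with no overlap. Untreated ein2 and ein2 after 10 h of elf18, at 5.79 log2, did not overlap either. The mean of ein2 after 10 h of elf18 lay 1.09 log2 above that of ein2 after 2 h of elf18.

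ARL showed the larger distance between ein2 and the other lines. On the 12 ein2 arrays it read 4.29 to 9.93 log2 with a median of 5.48, and without the array that stood apart the highest was 7.81. The 39 arrays of the other lines read 9.95 to 12.02 log2 with a median of 11.22, which places ARL in the bright range of the array in all lines but ein2. At 0 h ARL read 4.88, 5.43 and 5.80 log2 on the ein2 arrays and 11.29, 11.72 and 11.29 log2 in WT seedlings. The ein2 difference was -6.06 log2 from WT, -5.44 from efr, -5.68 from pepr1 pepr2 and -5.96 from bak1 (SE 0.56 each). The wide SE came from the array that stood apart, since it was 0.22 for the same differences when that array was left out.

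The ARL level in ein2 was not alike with the 2 peptides. At 2 h of elf18 it read 5.35, 4.29 and 4.70 log2 in ein2 seedlings, against 11.47, 11.58 and 11.60 log2 in WT seedlings, a difference of -6.77 log2 (SE 0.56). At 2 h of Pep2 it read 7.17, 7.81 and 7.40 log2 in ein2 seedlings, against 11.82, 11.70 and 11.85 log2 in WT seedlings, a difference of -4.33 log2. Every ein2 array of 2 h of Pep2 was above every ein2 array of 0 h and of 2 h of elf18, and still below all arrays of the other lines.

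Relative to untreated ein2, ARL differed by 2.09 log2 after 2 h of Pep2 and by -0.59 log2 after 2 h of elf18 (SE 0.56 each), and the elf18 level minus the Pep2 level was -2.68 log2. The same difference between the peptides at 2 h was -0.24 log2 in WT. The ein2 change minus the WT change was 1.73 log2 with Pep2 and -0.71 log2 with elf18 at 2 h (SE 0.80 each, 0.31 without the array that stood apart).

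At 10 h of elf18 the ein2 value of ARL depended on 1 array. It read 9.93, 5.53 and 4.76 log2 on ein2 replicates 1, 2 and 3, against 11.01, 11.17 and 11.15 log2 in WT and 10.48, 10.58 and 10.02 log2 in efr. Replicate 1 was thus within 0.1 log2 of the lowest efr array, while the other ein2 arrays were over 4 log2 units lower. The difference from WT was -4.37 log2 (SE 0.56) with all arrays and -5.97 log2 (SE 0.25) without replicate 1. From efr it was -3.62 log2 and, without replicate 1, -5.21 log2. The difference from untreated ein2 was 1.37 log2 with replicate 1 and -0.23 log2 without it, so its sign rests on that array.

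**Figure D3:**
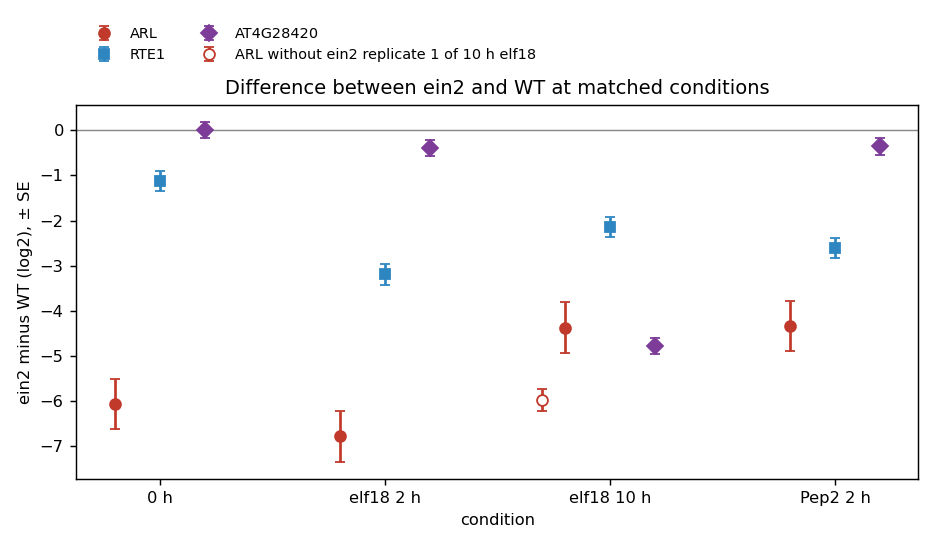
Ein2 minus WT in log2 units (points, with SE as bars) at the 4 conditions both lines share. ARL lies between -6.77 and -4.33, RTE1 between -3.19 and -1.12, and AT4G28420 leaves the region near 0 at 10 h of elf18 alone. The open circle is ARL without ein2 replicate 1 of 10 h of elf18, at -5.97.

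Outside ein2, none of the 13 tests of ARL was called. A larger difference than any of these was not tested. After 2 h of Pep2 the ARL level in pepr1 pepr2 minus that in WT was -1.54 log2 (SE 0.56), without overlap. The largest tested difference was between the responses to 2 h of Pep2 in bak1 and pepr1 pepr2. ARL read 9.95, 10.42 and 10.38 log2 in pepr1 pepr2 after 2 h of Pep2, against 11.18, 11.33 and 10.63 log2 at 0 h, and the arrays did not overlap (difference -0.80 log2, SE 0.56, adjusted p = 0.33). In bak1 it read 11.89, 12.02 and 11.81 log2, against 11.53, 11.15 and 11.32 log2 at 0 h, again without overlap (difference 0.57 log2, adjusted p = 0.41).

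The bak1 change minus the pepr1 pepr2 change was 1.37 log2 (SE 0.80, adjusted p = 0.16). The same contrast at 10 h gave 0.81 log2 (adjusted p = 0.39). With all arrays, 21% of all probe sets were called in this contrast at 2 h and 32.3% at 10 h. For the other contrasts the shares are those given with RTE1. Without the ein2 array that stood apart, which is in neither line but widens the pooled spread, the same 1.37 log2 had an SE of 0.31 and an adjusted p of 4.43e-04 and was called. Fitted on the 4 groups compared alone it was also called (adjusted p = 0.0017). The remaining responses were 0.42 log2 in bak1, -0.39 in pepr1 pepr2 and -0.18 in WT after 10 h of Pep2, and -0.45 log2 in efr after 10 h of elf18 (adjusted p = 0.52, 0.60, 0.82 and 0.54). At 10 h of Pep2 the level differed from WT by -0.60 log2 in pepr1 pepr2 and 0.50 log2 in bak1 (adjusted p = 0.43 and 0.47). Without that ein2 array, the adjusted p for 2 h of Pep2 was 0.0070 in pepr1 pepr2 and 0.027 in bak1. It was 0.025 for the contrast of responses at 10 h, 0.029 for pepr1 pepr2 minus WT and 0.054 for bak1 minus WT. For the remaining responses it was 0.087 in bak1, 0.145 in pepr1 pepr2, 0.52 in WT and 0.090 in efr. All of these differences were under the 2-fold minimum, so none was called. Among the untreated lines ARL differed by 0.53 log2 in bak1 minus efr, by 0.29 in bak1 minus pepr1 pepr2 and by -0.24 in efr minus pepr1 pepr2.

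In order of mean level, the 13 groups of the other lines held ranks 1 to 13 for ARL too, from 11.91 log2 in bak1 after 2 h of Pep2 down to 10.25 log2 in pepr1 pepr2 after 2 h of Pep2. Neighbours in this order overlapped, apart from bak1 after 10 h of Pep2 and WT after 2 h of elf18, which are 0.20 log2 apart. The next step, to ein2 after 2 h of Pep2 at 7.46 log2, was 2.79 log2. The 4 ein2 groups overlapped from one to the next when all arrays were kept.

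AT4G28420 was close to the lowest value of the scale in most groups and high in one. At 10 h of elf18 it read 2.33, 2.15 and 2.31 log2 in ein2 seedlings and 2.08 log2 on all 3 arrays in efr seedlings, against 7.27, 6.79 and 7.08 log2 in WT seedlings. The difference from WT was -4.78 log2 for ein2 and -4.97 log2 for efr (SE 0.18 each), and the WT change from 0 h was 4.97 log2. The ein2 array that stood apart was no exception for this gene. On 36 of the 51 arrays the value was within 0.1 log2 of 2.08, the lowest value in the file, and such values carry no order. The gene passed the filter on low values only through the 3 WT arrays of 10 h of elf18. In all groups of 0 h and after 2 h of either peptide the highest array read 3.22 log2, in WT after 2 h of elf18, so no difference between ein2 and WT could be read at those times.

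The second group in which AT4G28420 was above this floor was bak1 after 10 h of Pep2. It read 3.94, 4.45 and 3.66 log2 there, against 2.08 log2 on all 3 bak1 arrays of 0 h, and it rose by 1.93 log2 (SE 0.18, 3.82-fold, adjusted p = 4.41e-12). The level at the same time was 2.09, 2.09 and 2.59 log2 in WT and 2.08 log2 on all arrays in pepr1 pepr2. The bak1 group was higher than WT by 1.76 log2 (SE 0.18, adjusted p = 1.76e-10), with no overlap. The bak1 response minus the pepr1 pepr2 response was 1.93 log2 (SE 0.26, adjusted p = 3.52e-08). It equals the bak1 change, since pepr1 pepr2 stayed at the floor at both times. In the same contrasts 15.1%, 7% and 14.8% of all probe sets were called as higher.

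The means compared in these 3 calls use no ein2 array and not the WT group through which the gene passed the filter. Their SE and adjusted p rest on the spread over all 51 arrays, which includes both. The SE is narrow because many groups have an SD of 0 at the floor, and folds against the floor understate a change. The calls held when only the groups compared were fitted. Over all alternatives the highest adjusted p was 1.24e-04 for the bak1 change and 0.00106 for bak1 minus WT. None of the other 10 tests of AT4G28420 was called, including the change in WT after 10 h of Pep2 (0.17 log2, adjusted p = 0.44) and in bak1 after 2 h of Pep2 (0.17 log2, adjusted p = 0.45).

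Only the 2 highest groups were clear of the rest. WT after 10 h of elf18, at 7.05 ± 0.24 log2, and bak1 after 10 h of Pep2, at 4.01 ± 0.40 log2 (SD, n = 3 each), were 3.03 log2 apart. In WT after 10 h, the level with elf18 was 4.79 log2 above that with Pep2, whereas ARL differed by -0.15 and RTE1 by 0.06 log2 between the same groups.

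**Figure D4:**
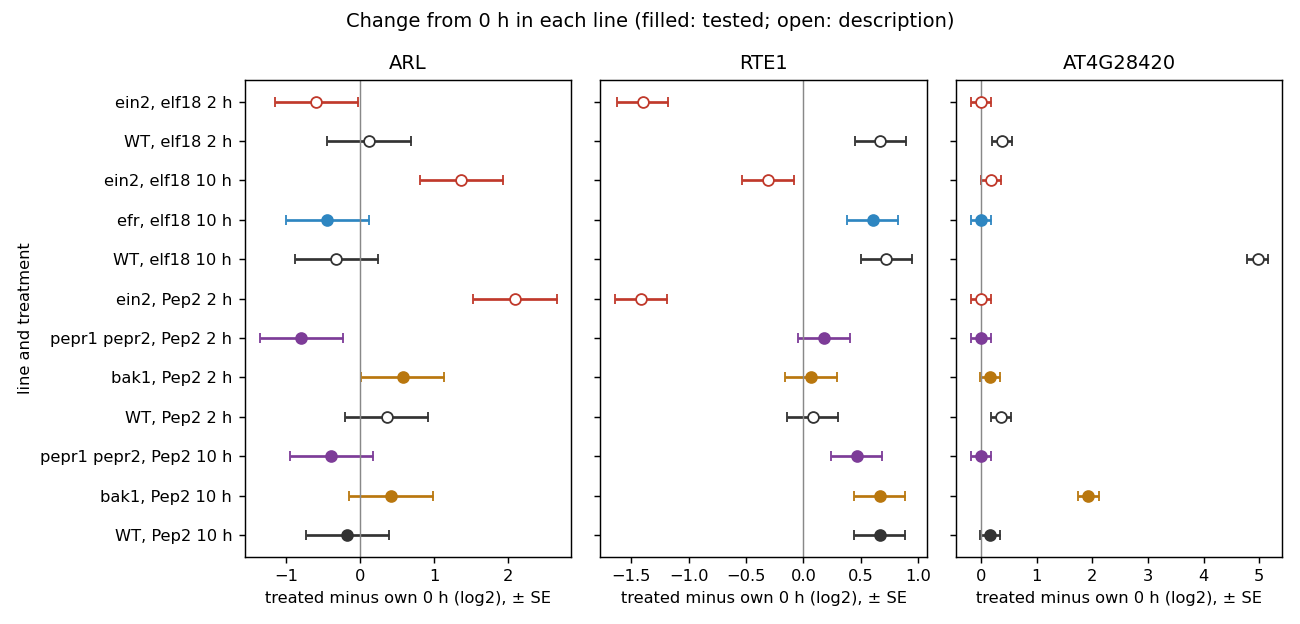
Change from the line's own 0 h (log2, with SE as bars) of each gene in every line and treatment, with its own horizontal scale in each panel. Filled points were tested and open points are descriptions. RTE1 in ein2 lies at -1.40 after 2 h of elf18 (-0.81 without replicate 1) and at -1.42 after 2 h of Pep2. It lies between 0.46 and 0.72 in every other line after 10 h, and AT4G28420 stands at 4.97 in WT after 10 h of elf18 and at 1.93 in bak1 after 10 h of Pep2.

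One tissue marker differed between ein2 and WT at 10 h of elf18. LHCB4.2 averaged 11.43 ± 0.68 log2 in ein2 seedlings and 9.58 ± 0.52 log2 in WT seedlings (SD, n = 3 each), higher in ein2 by 1.85 log2 (SE 0.22) and called, and WT at 0 h averaged 14.14 ± 0.09 log2. RCA averaged 14.23 ± 0.18 log2 in ein2 and 13.97 ± 0.16 log2 in WT at that time, under the 2-fold minimum (adjusted p = 0.024). EXPA7 averaged 6.39 ± 0.09 log2 in ein2 and 6.55 ± 0.20 log2 in WT (adjusted p = 0.69). Only these 2 of 8 photosynthetic and 1 of 9 root markers were paired with 1 probe set. At 0 h and at 2 h of either peptide none of the 3 was called between ein2 and WT, and over all arrays the ein2 medians were 15.01 for RCA and 6.45 log2 for EXPA7, against 14.96 and 6.75 log2 in the other lines. Their part in the differences of the 3 genes at 10 h of elf18 was not tested.

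Few other genes of ethylene signalling, synthesis and output could be tested between ein2 and WT. Of 52 listed genes, 6 besides RTE1 were paired with 1 probe set and tested. These were RTH, the homolog of RTE1, the transcription factor EIN3, the F-box protein gene ETP2, the ACC oxidase gene ACO3 (AT1G12010), whose enzyme makes ethylene, and the defensin genes PDF1.2 and PDF1.2b. None of the 6 was called between ein2 and WT at 0 h or after 2 h of elf18, where 4.53% and 6.03% of all probe sets were called. One, ACO3, was lower in ein2 after 10 h of elf18 and after 2 h of Pep2, where 6.32% and 5.45% were called. The median difference over the 6 genes was -0.06, -0.48, -0.07 and -0.30 log2 at 0 h, 2 h and 10 h of elf18 and 2 h of Pep2, beside 0.01, -0.01, -0.03 and -0.02 log2 over all probe sets.

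ACO3 averaged 7.98 ± 0.09 log2 in ein2 and 9.23 ± 0.24 log2 in WT after 10 h of elf18 (SD, n = 3 each), a difference of -1.25 log2 (SE 0.31, adjusted p = 0.0029). After 2 h of Pep2 it averaged 6.64 ± 0.55 log2 in ein2 and 7.77 ± 0.55 log2 in WT, a difference of -1.14 log2 (adjusted p = 0.0083). This second call was lost when only the groups compared were fitted and when replicate 1 of WT or replicate 2 of ein2 was left out. RTH, unlike RTE1, averaged 8.25 ± 0.16 log2 in ein2 and 8.50 ± 0.04 log2 in WT at 0 h (difference -0.25 log2, adjusted p = 0.14). At 2 h of elf18, where RTE1 differed by -3.19 log2, RTH differed by -0.15 log2 (adjusted p = 0.47). EIN3 averaged 9.57 ± 0.17 log2 in ein2 and 9.51 ± 0.13 log2 in WT at 0 h (adjusted p = 0.78).

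In WT the same 6 genes gave no call after 2 h or 10 h of elf18, where 14.5% and 26.9% of probe sets were called. After 2 h of Pep2 ACO3 alone fell, by 1.07 log2 (adjusted p = 0.0034), where 21.1% were called, and without replicate 2 of WT 0 h or replicate 3 of WT 2 h Pep2 it was not called. After 10 h of Pep2 it fell by 1.92 log2, while PDF1.2 rose by 2.94 log2 (adjusted p = 0.0014) and PDF1.2b by 3.60 log2. The probe set of PDF1.2b is of the kind that can also detect similar transcripts. Of the transaminase family, AT5G36160 differed between ein2 and WT by -0.48 log2 after 10 h of elf18 (adjusted p = 0.0036, under the 2-fold minimum) and by 0.16 log2 at 0 h (adjusted p = 0.44). AT4G23590, of the same family, did not pass the filter and averaged 3.50 ± 0.70 log2 in ein2 and 2.08 log2 in WT at 0 h. In the ARGOS family, ARL was the 1 gene of 3 paired with a probe set of its own.

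Across the 17 group means, which share their arrays' processing, the Pearson correlation was 0.87 between ARL and RTE1, 0.22 between ARL and AT4G28420 and 0.33 between RTE1 and AT4G28420. The genes whose group means were most like each were taken from 2946 candidates. For ARL they were AT5G17780 (r = 0.97), AT5G02540 (r = 0.93), AT2G39980 (r = 0.93) and the auxin glucosyltransferase gene IAGLU (r = 0.92). AT5G17780 averaged 3.86 log2 in ein2 and 6.74 log2 in WT at 0 h, and AT2G39980 averaged 5.95 log2 in ein2 and 11.47 log2 in WT after 2 h of elf18. Unlike ARL, AT2G39980 was lower in ein2 after 2 h of Pep2, at 4.98 log2, than in untreated ein2, at 6.13 log2.

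For RTE1 the most alike were the peroxidase genes AT5G19890 (r = 0.93) and AT1G49570 (r = 0.93), the ubiquitin-conjugating enzyme gene UBC29 (r = 0.93) and AT1G14890 (r = 0.93). AT1G49570 averaged 2.73 log2 in ein2 and 7.86 log2 in WT at 0 h, a far wider distance than that of RTE1, and UBC29 averaged 9.04 log2 in ein2 and 9.83 log2 in WT. For AT4G28420 they were AT5G39520 (r = 0.88), AT2G30670 (r = 0.85), AT1G77890 (r = 0.82) and the nitrate transporter gene NRT2.5 (r = 0.82). AT5G39520 shared both high groups, with 5.17 log2 in bak1 after 10 h of Pep2 and 2.58 log2 in WT after 10 h of Pep2, and with 2.11 log2 in ein2 and 5.06 log2 in WT after 10 h of elf18. NRT2.5 shared the WT group of 10 h of elf18, at 8.42 log2, but read 2.08 log2 in bak1 after 10 h of Pep2. With 17 points of which the ein2 groups lie apart for ARL and RTE1, and of which 1 group lies apart for AT4G28420, these coefficients describe mainly those groups.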

How the data were processed

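Expression was measured on 51 ATH1 arrays, 3 for each of 17 groups given by the labels. The authors deposited log2 expression values normalised with GCRMA, per the submitters' processing notes, and these were used as deposited. The number of arrays limits the precision. Their lowest value, 2.08 log2, forms a floor, and 27.4% of values lay within 0.1 log2 of it. Of 22810 probe sets, 13513 were paired with 1 gene in the platform annotation, 503 with several and 8730 with none, and 13436 were matched to a locus through their Entrez number in the RefSeq gene table of assembly TAIR10.1.

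Probe sets with at least 5 log2 on at least 3 arrays (14568, controls left out) entered 1 linear model of all 51 arrays that held the 17 group means (R 4.3.3, limma 3.58.1), so the spread was estimated from all groups. P-values were adjusted by Benjamini-Hochberg over all 14568, and a call needed an adjusted p below 0.05 and at least a 2-fold difference. The methods were tested on simulated data that had normally distributed noise and no floor. That simulation does not cover probe sets with most values at the floor, such as that of AT4G28420.

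The members and gene lists were chosen with earlier results of these data known. Genes named were the members, EFR, the list genes with 1 probe set and, for each member, the 4 genes with the highest Pearson correlation over group means, among tested probe sets paired with 1 gene whose group means had an SD of at least 0.5. Replicate numbers could pair arrays: the mean correlation of residuals was 0.08 between arrays of equal number and -0.04 between the others, and in 3 of 36 comparisons every pair was over 0.1. Alternatives were other filters, an intensity trend, fits of only the groups compared, a replicate block, quantile normalisation, median centring, array weights, and no fold minimum, and each array was also left out in turn. Fitting without 1 ein2 array was chosen after seeing the data.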

Additional observations from a re-analysis of the deposited data

Results flagged for a closer look

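The response of AT4G28420 to 10 h of Pep2 differed between bak1 and pepr1 pepr2. The gene rose by 1.93 log2 in bak1 and stayed at the lowest value of the scale on all arrays in pepr1 pepr2, and limma's test of the difference between the responses gave 1.93 log2 (SE 0.26, adjusted p = 3.52e-08). It was called in 21 of 21 alternatives, with values between 1.71 and 2.11 log2 and a highest adjusted p of 2.18e-05. With pepr1 pepr2 at the floor at 0 h and 10 h, this difference is the bak1 change itself and adds no separate result. The SE is narrow because many groups have an SD of 0 at the floor, while bak1 after 10 h of Pep2 had an SD of 0.40 log2.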

How the results depend on the processing

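Every test of a member kept its call when any 1 array of the groups compared was left out, and 372 of 377 did under the other alternatives. The 5 exceptions became calls. The ARL response in bak1 minus that in pepr1 pepr2 after 2 h of Pep2, 1.37 log2, was called without the ein2 array that stood apart and with only the groups compared. RTE1 was called with no fold minimum after 10 h of Pep2 in WT (0.66) and bak1 (0.66) and after 10 h of elf18 in efr (0.60). The sign of 2 RTE1 differences near 0, bak1 minus WT after 10 h of Pep2 and bak1 minus pepr1 pepr2 at 0 h, turned in 5 alternatives each. AT4G28420 has no value with the filter at 7 log2.

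Without the ein2 array that stood apart, ARL after 10 h of elf18 gave -5.97 log2 from WT, -5.21 from efr, -0.23 from ein2 at 0 h and 0.10 for the ein2 change minus the WT change, and array weights gave -5.31, -4.64, 0.38 and 0.72. Leaving out each array gave ranges of -5.97 to -3.38, -5.21 to -2.63, -0.23 to 2.36 and 0.10 to 2.68. For RTE1 after 2 h of elf18, ein2 minus WT ranged from -3.49 to -2.60 and was -2.91 with array weights, and the ein2 change minus the WT change ranged from -2.37 to -1.48 and was -1.73. The AT4G28420 values of ein2 minus WT, and of the ein2 change minus the WT change, after 2 h of elf18 both ranged from -0.58 to -0.01, -0.014 being the value without WT replicate 2. Calls among the 6 ethylene genes were 0 to 1 in ein2 minus WT after 2 h of elf18 and of Pep2, and 0 to 2 in WT after 2 h of Pep2, when an array was left out. With only the groups compared they were 0 for ein2 minus WT and for WT after 2 h of Pep2, and 1 for WT after 10 h of elf18, as with array weights. With no fold minimum they were 2 and 1 for WT after 2 h and 10 h of elf18 and 3 after 2 h of Pep2. The causes were not tested.

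The replicate block changed no call of a member. It moved the count over all probe sets by more than 1.5 times in 1 comparison, untreated efr minus pepr1 pepr2, which gave 55 with the block and 22 without. That count was 50 with array weights and 3 with only the groups compared, which also gave 4 in place of 7 for untreated bak1 minus pepr1 pepr2 and 5 in place of 88 for bak1 minus efr. With no fold minimum, 19 counts grew by more than 1.5 times. For ein2 minus WT they were 2176 in place of 660 at 0 h, 2371 in place of 878 and 2966 in place of 920 after 2 h and 10 h of elf18, and 2412 in place of 794 after 2 h of Pep2. For WT they were 7102 in place of 2112 and 9643 in place of 3921 after elf18, and 8477 in place of 3067 and 7711 in place of 2537 after Pep2. In bak1 they were 7828 in place of 2904 and 10312 in place of 4663, in pepr1 pepr2 3446 in place of 514 and 7205 in place of 2154, and in efr 7226 in place of 2215. Between the responses of bak1 and pepr1 pepr2 they were 6471 in place of 3058 and 8720 in place of 4704, and against WT after 10 h of Pep2 they were 8024 in place of 2352 for bak1 and 5645 in place of 1190 for pepr1 pepr2. Untreated, they were 249 in place of 88 for bak1 minus efr and 52 in place of 22 for efr minus pepr1 pepr2. By Spearman correlation, AT2G39980 and IAGLU remained among the 4 genes most like ARL, and the others named differed.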
